A study of Drosophila melanogaster with 2 samples.

Results

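The 67B cluster of chromosome arm 3L holds the classical small heat shock genes of Drosophila melanogaster, and the 7 genes described here are Hsp67Bc, Hsp67Bb, Hsp22, Hsp26, Hsp67Ba, Hsp23 and Hsp27, of 13945 protein-coding genes in the annotation. They were chosen by name from the Ensembl annotation on assembly dm6, with earlier results of these data known. A region of the deposited lists was counted for the cluster when its summit, the position the authors give as the region's highest point, lay inside one of the genes or within 2000 bp of one. By that rule the cluster holds 5 summits of the reproducible list (0.0625% of that list), 14 of the pooled list, 12 of replicate 1 and 14 of replicate 2, where the last 3 lists have 30000 regions each. Positions and signal values therefore chose the regions, and their values are given as a description, without a test.

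Chromatin immunoprecipitation sequencing was done on whole pupae aged 48 h. Both sexes were pooled, and all animals came from a transgenic line with a stably expressed CG8301 that carries GFP at its C terminus. There are 2 biological replicates of this 1 group, both carrying the fusion, and no second condition; the lists were derived with a control file that was not analysed here. The antibody field of the labels names CG8301, but their description text calls both libraries an input control, so nothing below says that the fused protein sat at a region. Whole animals were used, so the tissue that gave a signal is not known, and neither RNA nor sequencing depth is part of the lists. The reproducible list holds the regions that passed the authors' irreproducible discovery rate (IDR) threshold, and each list carries an authors' signal value whose scale is not stated; ranks below count from 1 for the strongest region of a list.

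Small heat shock proteins are chaperones that share the alpha-crystallin domain and keep unfolding proteins from aggregating without using ATP. In flies Hsp22, Hsp23, Hsp26 and Hsp27 are also made without heat at set times of development, with ecdysone, the steroid of metamorphosis, among their inducers. Heat shock factor binds inverted repeats of the unit GAA, and GAGA factor binds GAGAG repeats at the promoters of several heat shock genes, where RNA polymerase pauses close to the start.

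The sequences upstream of the 3 genes with an IDR summit within 500 bp of a start are shown 5′ to 3′ in the direction of the gene, read from the NCBI reference of the same release as dm6, with capitals for letters that match a paired heat shock unit (GAANNTTC or TTCNNGAA), GAGAG or TATAA on either strand. The Hsp27 stretch is chr3L:9383718-9384017 on the plus strand and ends short of the start. The summit, 159 bp upstream, falls in the match to TATAA shown. Another TATAA match of Hsp27, from 28 to 24 bp upstream, lies outside the stretch. The Hsp26 stretch, chr3L:9377448-9377747 on the minus strand, holds the stronger Hsp26 summit, and the Hsp23 stretch, chr3L:9381667-9381866 on the plus strand, holds the Hsp23 summit. The whole gap between the starts of Hsp67Bc and Hsp67Bb, chr3L:9372498-9372721 on the plus strand, is added because these genes had no IDR summit at their starts.
Hsp27: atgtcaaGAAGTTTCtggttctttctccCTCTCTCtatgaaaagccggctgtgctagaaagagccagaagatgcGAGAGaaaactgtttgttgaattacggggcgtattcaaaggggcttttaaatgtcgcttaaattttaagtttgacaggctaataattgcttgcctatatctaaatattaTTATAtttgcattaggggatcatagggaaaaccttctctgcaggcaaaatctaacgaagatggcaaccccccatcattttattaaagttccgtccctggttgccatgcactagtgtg
Hsp26: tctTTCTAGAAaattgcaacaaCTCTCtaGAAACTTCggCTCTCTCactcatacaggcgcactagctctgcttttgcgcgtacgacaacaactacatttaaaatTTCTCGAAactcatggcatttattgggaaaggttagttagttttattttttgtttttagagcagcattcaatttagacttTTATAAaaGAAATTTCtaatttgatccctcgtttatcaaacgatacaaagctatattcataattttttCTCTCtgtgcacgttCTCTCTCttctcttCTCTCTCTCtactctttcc
Hsp23: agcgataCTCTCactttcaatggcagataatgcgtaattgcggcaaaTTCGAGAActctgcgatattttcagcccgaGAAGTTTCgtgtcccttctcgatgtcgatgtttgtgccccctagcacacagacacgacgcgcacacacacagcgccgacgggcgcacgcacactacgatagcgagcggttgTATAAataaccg
Hsp67Bc to Hsp67Bb: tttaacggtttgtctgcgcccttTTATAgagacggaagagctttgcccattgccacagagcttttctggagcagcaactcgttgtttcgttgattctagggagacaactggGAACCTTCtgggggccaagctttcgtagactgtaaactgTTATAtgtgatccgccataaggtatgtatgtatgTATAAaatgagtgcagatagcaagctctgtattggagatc

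Along the cluster, the IDR summits lay at Hsp27, Hsp26, Hsp23 and in the transcription unit that Hsp22 shares with Hsp67Bb, and they differed widely in strength. All 7 genes had an IDR summit within 2000 bp, against 33.5% of protein-coding genes and 22.5% of those no longer than the longest of the 7 genes, 2243 bp. The rule used these values, and the windows of neighbours overlap, so 5 summits in 4 regions serve 7 genes. The searched stretch of 18184 bp held 5 IDR summits, and 5.37% of the 7360 windows of that length along the chromosomes held as many or more, with a mean of 1.09 and a maximum of 13. At least the 14 pooled summits were held by 6.94% of such windows.

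**Figure D1:**
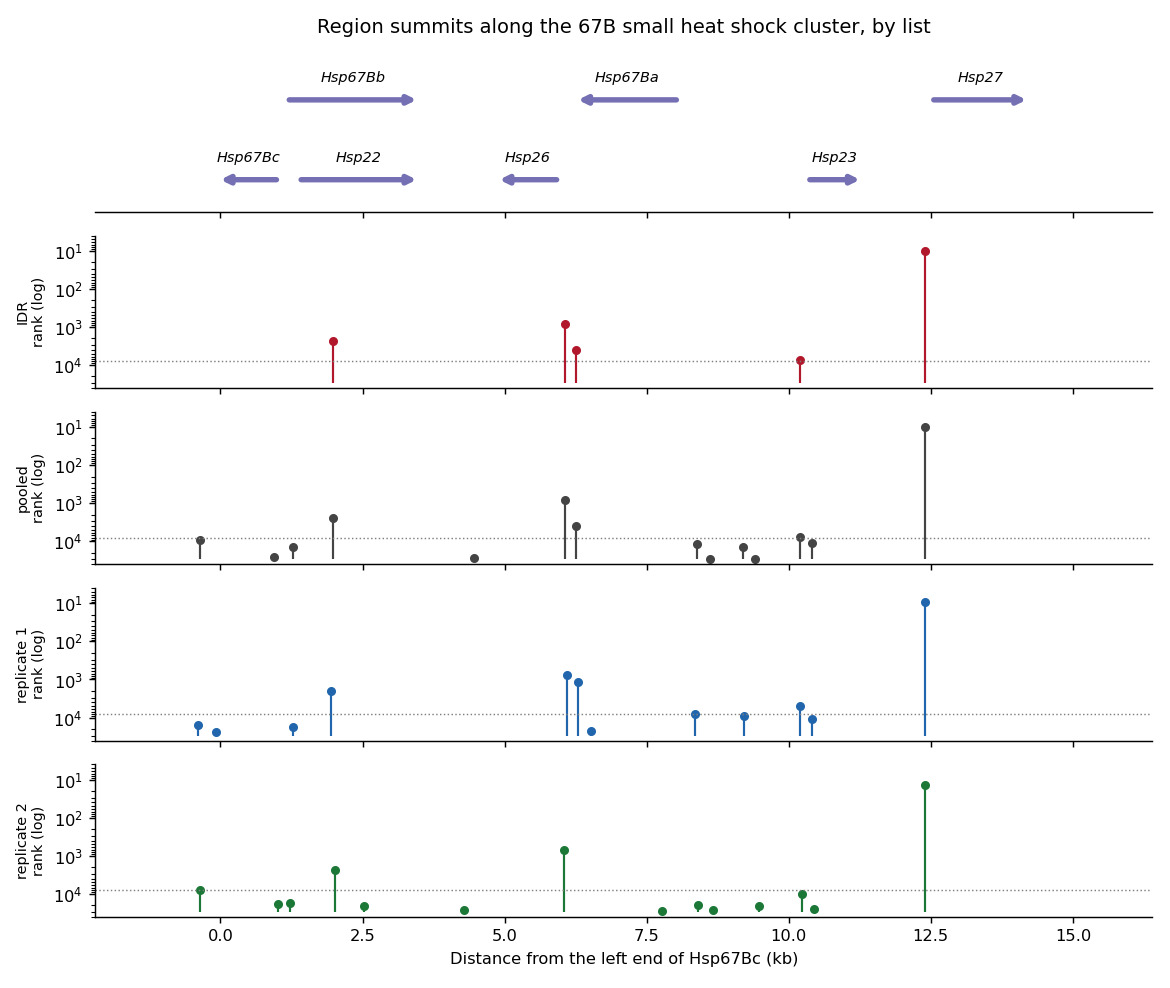
Summits of the 4 lists along the cluster, placed by distance in kb from the left end of Hsp67Bc, with the genes drawn as arrows in the direction of transcription; the height of each line is the rank on a log axis with the strongest at the top, and the dotted line marks the length of the IDR list. The summit before Hsp27 stands highest in every list, and the stronger of the pair of IDR summits between Hsp26 and Hsp67Ba, at rank 848, comes next.

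Hsp27 encodes a small heat shock protein found in nuclei, and its promoter held the strongest region of the cluster in each list. The gene (FBgn0001226) spans 9384063 to 9385694 on the plus strand, and the IDR region ran from 9383621 to 9384173 with its summit at 9383904, 159 bp upstream of the only annotated start, between genes. The authors' signal value was 1719 in replicate 1, rank 9, and 2670 in replicate 2, rank 14, while the pooled list gave 4365 at rank 10. Both replicates placed the summit on the same base as the pooled list. Among all 7686 IDR regions found in both replicate lists, the replicate summits shared a base in 123, or 1.60%. Whether the pooled summit lay there too was not counted, and the median distance between replicate summits was 24 bp. No other summit of any list lay within 2000 bp of Hsp27, and on its far side the next IDR summit was 25221 bp beyond the gene. Within the IDR list the Hsp27 value was 4.70 times that of the next strongest region of the cluster and made up 70.5% of the cluster's summed IDR signal.

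Hsp26, which nurse cells and other tissues express without heat, had the next strongest region. The gene (FBgn0001225) spans 9376418 to 9377427 on the minus strand, and 1 interval of 784 bp, from 9377322 to 9378105, was listed with a pair of IDR summits 200 bp apart. The stronger lay at 9377570, at rank 848 with a signal of 928. It was 143 bp upstream of the annotated start at 9377427 and 195 bp upstream of the other. Replicate 1 gave its nearest summit rank 772 with a signal of 394 and replicate 2 gave rank 700 with a signal of 624, and these summits were 48 bp apart. The weaker, at 9377770, was 343 bp upstream and 32 bp from the 3′ end of Hsp67Ba, at rank 4067 with a signal of 291. The replicates differed there: replicate 1 listed a summit 37 bp away at rank 1163 with a signal of 310, while the nearest summit of replicate 2 was the one already counted for the stronger summit, 212 bp away. Intervals listed with more than 1 summit held 3.21% of the rows of the IDR list.

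Hsp22, a chaperone of the mitochondrial matrix, and Hsp67Bb, which RefSeq now lists as CG4456 with an uncharacterized product, share transcripts: an annotated RNA starts at 9372931 and carries both reading frames to 9374964. The IDR summit at 9373485 (region 9373329 to 9373681, rank 2388, signal 455) lay inside that unit, in the 3′ UTR of Hsp67Bb and in the 5′ UTR of the longer Hsp22 transcript. It was 512 bp upstream of the start of the shorter Hsp22 transcript, at 9373997, and so just outside the 500 bp that defined a promoter summit. Replicate 1 listed it at rank 2004 with a signal of 212, and replicate 2 at rank 2415 with a signal of 274. The replicate summits were 84 bp apart, and that of replicate 2, at 462 bp upstream, fell inside the promoter distance while that of replicate 1 did not. The 51 bp around the pooled summit had a GC content of 7.84%, against a median of 29.4% over all IDR regions. Over 201 bp it was 26.9% against 33.3%, and over the whole region 31.7% against 36.5%, so the difference was smaller in wider windows. The 51 bp measure was 31.4% at the Hsp27 summit, 21.6% and 45.1% at the stronger and weaker Hsp26 summits and 43.1% at the Hsp23 summit.

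Hsp23 encodes a cytoplasmic small heat shock protein, and its promoter held the weakest of the 5 IDR summits. The gene (FBgn0001224) spans 9381882 to 9382765 on the plus strand, and the summit lay at 9381702, 180 bp upstream, at rank 7604 with a signal of 152. It ranked 5114 in replicate 1 with a signal of 99.0 and 10184 in replicate 2 with a signal of 65.1, so in replicate 2 it fell beyond a rank equal to the length of the IDR list. Its region had the commonest width of the list, 410 bp, as 15.7% of IDR regions do, and the summit lay at its centre. Such a summit marks the middle of a region of set width. The Hsp27 summit, 1139 bp beyond the 3′ end of Hsp23, also counts for Hsp23 under the rule.

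Hsp67Bc, a small heat shock protein that works with the cochaperone Starvin in the clearance of proteins, and Hsp67Ba had IDR summits only through neighbours. The IDR summit nearest to the start of Hsp67Bc (FBgn0001229, 9371511 to 9372497, minus strand) was the one inside Hsp67Bb, 988 bp upstream. That nearest to Hsp67Ba (FBgn0001227, 9377802 to 9379534, minus strand) lay beyond its 3′ end. Weaker pooled regions were listed at both starts. Hsp67Bc and Hsp67Bb are transcribed away from each other, with a gap of 224 bp between them. Next to the gap, the pooled list had summits at 9372792, in the 5′ UTR of Hsp67Bb, rank 14135, and 9372462, in that of Hsp67Bc, rank 25796. Replicate 1 listed 1 summit in the 5′ UTR of Hsp67Bb, at rank 18049. Replicate 2 listed 1 in that UTR, at rank 17161, and 1 inside the gap, at rank 18932. Upstream of Hsp67Ba the pooled summit was at 9379889, 355 bp from the start and inside the antisense RNA gene asRNA:CR43481, at rank 11701; its rank was 8284 in replicate 1 and 19364 in replicate 2.

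With promoters defined as the 500 bp to each side of a start, 3 of 7 genes, Hsp26, Hsp23 and Hsp27, had an IDR promoter summit, against 16.2% of protein-coding genes. In the whole lists all 7 had one, against 31.6% of genes in the pooled list, 37.6% in replicate 1 and 31.1% in replicate 2. Hsp22, Hsp67Bb and Hsp67Bc count through the same pooled summit at 9372792, so the 7 are not separate observations. The rule again used these values, and nothing is read from the difference.

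Other distances changed which genes were counted. With 1000 bp around the gene all 7 still had an IDR summit (27.3% of protein-coding genes), and with 500 bp 6 did (24.1%), Hsp67Bc being lost. Only 2, Hsp22 and Hsp67Bb, had one inside the gene (14.9%). Promoters of 250 bp gave the same 3 genes (11.7%), while those of 1000 bp gave 6 (20.4%), with Hsp22, Hsp67Bb and Hsp67Bc added. In the upper part of the IDR list, above its middle rank, all 7 genes had a summit within 2000 bp (22.6%) but only Hsp26 and Hsp27 had a promoter summit, 2 of 7 (9.74%). Over the strongest regions of 1 replicate, as many as the IDR list holds, all 7 had a summit within 2000 bp in replicate 1 (34.8%) and in replicate 2 (33.5%). Promoter summits were found for 3 genes each, in replicate 1 at Hsp23, Hsp26 and Hsp27 (17.4%) and in replicate 2 at Hsp22, Hsp26 and Hsp27 (16.2%). Over the whole lists, a summit within 2000 bp was found for all 7 genes in the pooled list (48.3%), replicate 1 (55.4%) and replicate 2 (49.8%).

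At the limits of the searched stretch, the outermost pooled summit inside it on the Hsp67Bc side lay in an intron of Fdx1 at rank 9317. The nearest outside was an IDR summit at 9367638, 3873 bp from the end of Hsp67Bc and in an intron of CG4452, at rank 3931 with a signal of 300.0. On the other side the nearest inside was the Hsp27 summit itself, and the nearest pooled summit outside was 6442 bp beyond Hsp27, at rank 9395.

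**Figure D2:**
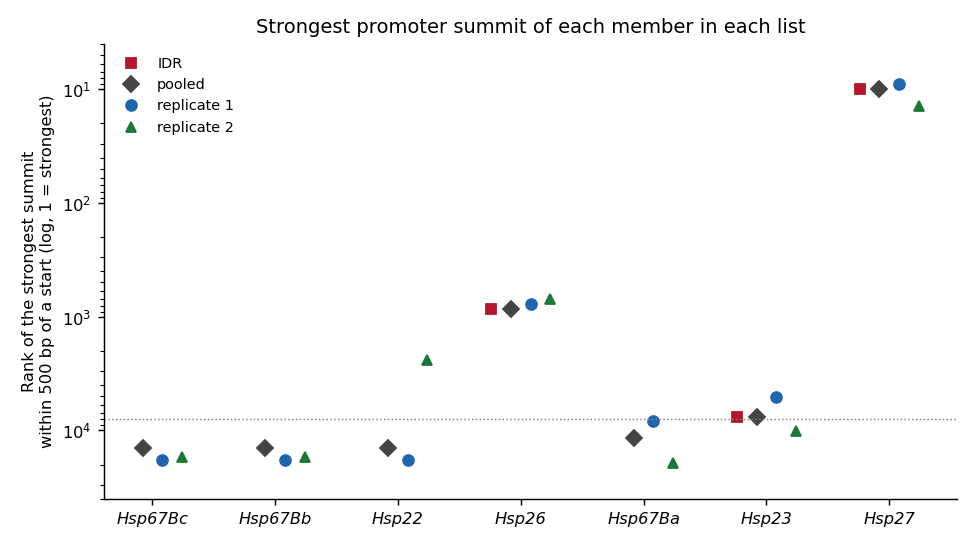
Rank, on a log axis with the strongest at the top, of the strongest summit within 500 bp of a start of each gene in the IDR, pooled, replicate 1 and replicate 2 lists; each point is 1 region, a missing point means none was listed, and the dotted line marks the length of the IDR list. Hsp27 sits at ranks 9 to 14 and Hsp26 at 700 to 848 in all lists, Hsp22 reaches rank 2415 in replicate 2 alone, and Hsp67Bc and Hsp67Bb lie at ranks 14135 to 18049 in the lists that have them.

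The replicates were compared over the 5 IDR summits. Each region overlapped a region of both replicate lists by at least 1 bp, as 96.0% of all IDR regions did, and 4 of 5 had summits of both replicates within 100 bp, against 91.9% of all; the exception was the weaker Hsp26 summit. The order of the 5 was the same in the IDR list and in replicate 1 except that the weaker Hsp26 summit stood above the Hsp22 summit there, at 1163 against 2004. With 2 replicates of 1 group no test over samples was possible, and because the IDR list was derived from these lists, the match between them is not independent evidence.

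**Figure D3:**
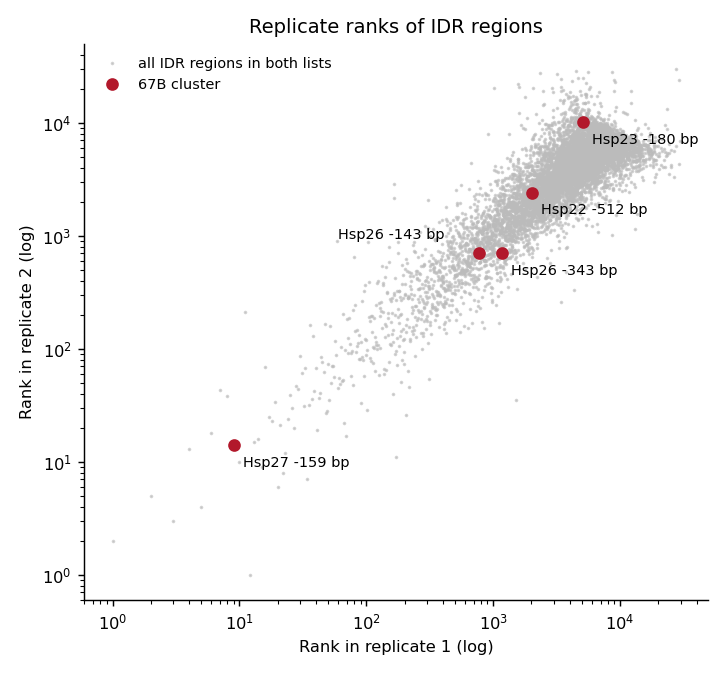
Rank of each IDR region in replicate 1 (x axis) and replicate 2 (y axis), both on log axes, for the 7686 IDR regions overlapped in both lists (grey) and the 5 of the cluster (red, named by the nearest gene and the distance of the IDR summit from its start). Hsp27 lies at 9 and 14 and Hsp23 at 5114 and 10184; the Hsp26 summits share the same replicate 2 region, at rank 700.

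The 9 pooled summits of the cluster outside the IDR list had signals from 21.4 to 120 at ranks 9317 to 29298. All 9 had the list's commonest width, as 75.1% of pooled regions do. Regions of both replicates overlapped 8 of them, with replicate summits within 100 bp of each other in 4. Of the 9, 4 lay in exons of asRNA:CR43481, which runs antisense to Hsp67Ba and on towards Hsp23, and the one nearest to the Hsp23 start was 32 bp downstream of it, at rank 11180. For the overlap and exon counts no share over all pooled regions is given, so nothing is read from them.

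Sequence motifs were searched as letters on both strands, and a match is a description of the sequence, not a site. A heat shock pair in either orientation lay within 100 bp of 3 of the 5 IDR summits, against 10.9% of all IDR summits, and GAGAG lay near the same 3, against 22.3%. These were both summits at Hsp26 and the one at Hsp23. At the stronger Hsp26 summit the middle of the nearest pair was 18 bp away, and at Hsp23 it was 16 bp away. Both motifs together occurred within 100 bp of 2.25% of all IDR summits. Overlapping GAGAG matches within a run were each counted.

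The strongest summit had neither. Within 100 bp of the Hsp27 summit there was no match to the heat shock pairs, to GAGAG, to the ecdysone element core TTCANTGCA, to the nuclear receptor half-site AGGTCA, to the DRE letters TATCGATA or to the E-box letters CACGTG. The only match was 1 to TATAA, which 59.8% of all IDR summits have. The heat shock pair of the promoter lay from 338 to 331 bp upstream of the start, 172 bp from the summit, and GAGAG matches lay from 317 to 267 bp upstream, so both were inside the region but away from its summit. Over whole regions, 15.2% of IDR regions held a heat shock pair and 36.6% held GAGAG. The summit shared by Hsp22 and Hsp67Bb had no match to any of the 8 motifs within 100 bp; its region held 3 matches to GAGAG and 0 heat shock pairs.

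**Figure D4:**
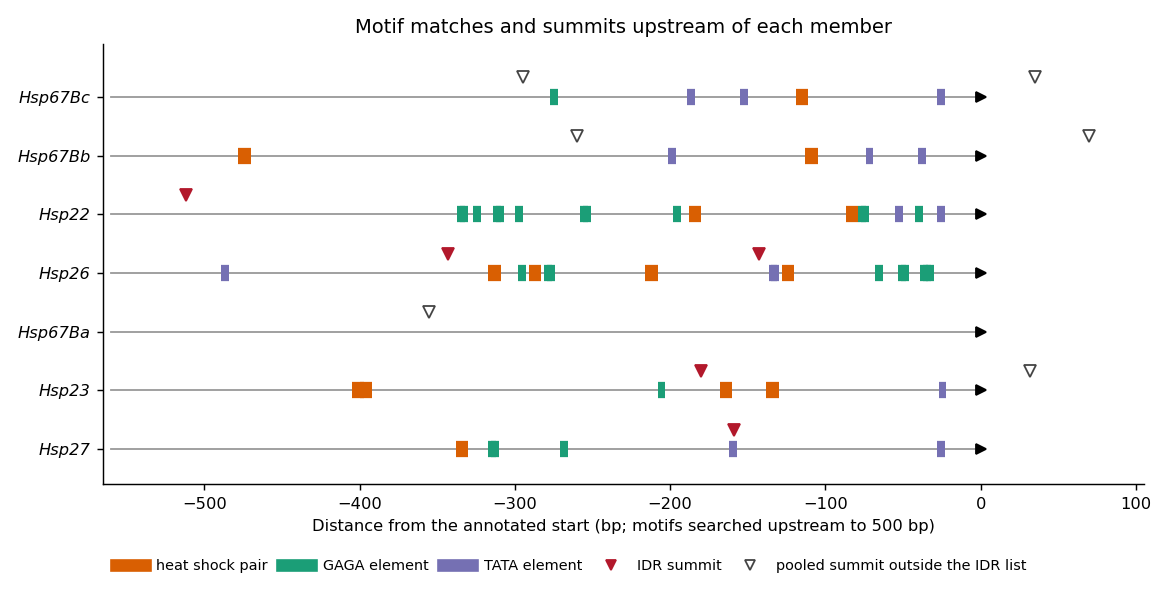
Matches to the heat shock pairs (orange), GAGA element (green) and TATA element (purple) in the 500 bp upstream of 1 annotated start of each gene, with distance from the start in bp on the x axis; filled triangles are IDR summits and open triangles pooled summits outside that list. For Hsp22 the start at 1066 bp inside the gene is drawn and for Hsp26 the start at 9377427. The Hsp27 summit at 159 bp upstream lies on a TATA match between the heat shock pair and the start, and Hsp67Ba has no match.

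Matches were also counted upstream of each gene, and a relation between these counts and rank was not tested. A heat shock pair was found in the 500 bp upstream of a start in 6 of the 7 genes, against 24.9% of protein-coding promoters, and GAGAG in 6 of 7, against 41.7%. The only heat shock pair of Hsp67Bc is also counted for Hsp67Bb and for the Hsp22 start at 9372931. The only GAGAG match of Hsp67Bc is shared in the same way, so the 6 are not separate observations. TATAA at 20 to 35 bp upstream of a start, a distance chosen after the matches were seen, occurred in 5 of 7, at Hsp67Bc, Hsp22, Hsp26, Hsp23 and Hsp27, against 8.95%. Only the strand of the gene was searched for this count, in the 7 genes and in the background. For genes with 2 starts either could supply the match, while 1 start per gene was used for the background. Hsp22 had the most GAGAG matches, 12 before its inner start, and Hsp26 had 9. The IDR summit of Hsp22 ranked 2388 and lay 512 bp before that start, outside the 500 bp searched. The stronger summit of Hsp26 ranked 848. Hsp27, at rank 10, had 3 GAGAG matches and 1 heat shock pair. Hsp67Ba had 0 of either, and Hsp67Bc, with 1 heat shock pair, 1 GAGAG match and TATAA at its place, had no IDR summit at its start. Matches to AGGTCA occurred before Hsp22 alone, and TTCANTGCA, TATCGATA and CACGTG had no match within 500 bp upstream of any start of the 7 genes. These counts stop at 500 bp, so they do not say whether a gene has such letters farther upstream.

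Outside the 7 genes, 7 of 23 other heat shock and chaperone genes had an IDR summit within 2000 bp, or 30.4% against 33.5% of protein-coding genes, a share near the background. The strongest was at stv, which encodes the cochaperone Starvin, where the leading summit 548 bp upstream of a start ranked 204 (154 in replicate 1 and 278 in replicate 2). At Hsp83, the fly Hsp90, a summit 1053 bp downstream of the start ranked 249, with 284 and 253 in the replicates. At Hsc70-5, a mitochondrial Hsp70, the summit 59 bp upstream ranked 651, with 856 and 551. CG4461, which lies between Hsp22 and Hsp26, counted through summits already described, the strongest being that of Hsp26 at rank 848. The remaining genes with a summit were Hsc70-3, l(2)efl and CG14207, at ranks 7751, 6122 and 1322. No IDR summit was listed within 2000 bp of the other 16: Hsp68, Hsp70Aa, Hsp70Ab, Hsp70Ba, Hsp70Bb, Hsp70Bbb, Hsp70Bc, Hsf, DnaJ-1, Hsp60A, Hsc70-1, Hsc70-2, Hsc70-4, Droj2, CG7409 and CG13133. Copies of Hsp70 are nearly identical, and reads from them may not be placed uniquely, so their lack of regions is uncertain.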

How the data were processed

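Chromatin immunoprecipitation libraries from 2 biological replicates of whole pupae were used as the 4 region lists that the authors deposited on dm6. According to the deposited text files, a replicate list was made from that replicate's alignments and control reads, the pooled list from the alignments of both, and the IDR list from the other 3. Caller, aligner and threshold: not given in the sources used here. Each signal value is the authors' deposited value, of unstated scale, and was used within a list only, for ranks and, at the cluster's IDR summits, for ratios and a share of summed signal. Summits are the region start plus the deposited offset. Read depth is unknown.

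Gene positions came from Ensembl release 115, and Hsp67Bb was found as CG4456 through RefSeq synonyms. All regions and genes fitted within the chromosome lengths of the NCBI Release 6 sequence. Python 3.11.15, numpy 2.4.6 and pandas 2.3.3 were used. The genes and lists were chosen with earlier results of these data known. Named were the 7 genes, genes beside the summits, and of the other heat shock genes the 4 with the strongest IDR summits and those with none; the remaining 3 are named as well, chosen after their values were seen. Counting either orientation of the heat shock pair, the place of TATAA and GC content over 51 bp were chosen after values were seen. The counting steps were tested on simulated data. No statistical test was made, since the data hold 1 group and the rule used the values.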

Additional observations from a re-analysis of the deposited data

How the results depend on the processing

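The count of 7 genes with an IDR summit held with a window of 1000 bp, above the middle rank of the IDR list, and in the strongest regions of either replicate alone (range 7 to 7), was 6 with 500 bp, and fell to 2 when the summit had to lie inside the gene. The promoter count of 3 rose to 6 at 1000 bp, was 2 above the middle rank, where Hsp23 was lost, and was 3 in either replicate alone (range 3 to 3), with Hsp22 in place of Hsp23 in replicate 2. The 5 IDR summits became 3 above the middle rank and 4 to 5 in single replicates. With an overlap of at least 50% of each region, 3 rather than 5 were matched in both replicates. The replicate 2 region at Hsp26, 343 bp wide, covers less of the 784 bp interval that holds a pair of summits. No share of all IDR regions under that rule is given, so the count of 3 is a description only. Summits within 100 bp, or the strongest regions of each replicate, gave 4. Other heat shock genes with an IDR summit fell from 7 to 4 at 500 bp. Within 50 bp of the summit, 3 of 5 had a heat shock pair, against 5.76% of all IDR summits, and 2 had GAGAG, against 9.33%. Counting summits of a shared interval once gave 4, and using only canonical starts left the promoter count at 3; both were chosen after seeing the data. No paired analysis was possible because both libraries belong to 1 group. Depth is unknown, the scale of the signal is not stated, and many summits are the middle of a region of set width.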

Other observations

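At Fdx1, which encodes a ferredoxin and lies next to Hsp67Bc, the pooled summit at 9371157 was 81 bp from a start and ranked 9317, outside the IDR list. The replicates differed there, with rank 16105 in replicate 1 and 7792 in replicate 2, and their summits were 27 bp apart. In the coding sequence of CG4461 the pooled list had a summit at rank 27939, which replicate 2 alone overlapped.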
